A study of Homo sapiens with 4 samples.

Results

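The seed family of miR-34 and miR-449 comprised the assays hsa-miR-34a, hsa-miR-34c-5p, hsa-miR-449a and hsa-miR-449b, 4 of the 377 human miRNA assays on a quantitative PCR array card. They were chosen by name for their known shared seed, and with their Ct values and differences in these samples already in view, so their values are given as a description. The card was run on 4 samples, 1 per group, from the multiple myeloma line RPMI8226, an established human cell line. The groups were the exosome fraction of medium from cells kept at 1% oxygen for 24 h (hypoxia), the exosome fraction at 20% oxygen (normoxia), hypoxic cells and normoxic cells. Exosomes are small vesicles that cells release, and the fraction was precipitated from 5 ml of medium with a polymer reagent, which does not separate vesicles from other material in the medium. Per the labels' protocols, a plant miRNA (ath-miR159) was added to each lysate as a spike-in, which was measured in both exosome samples and was at the ceiling in both cell samples, and only the exosome products were pre-amplified before the card. Compartment and pre-amplification therefore cannot be told apart.

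A miRNA pairs with messenger RNAs mainly through its seed, bases 2 to 8 from its 5′ end, so miRNAs with one seed can repress overlapping sets of targets. The miR-34 genes are best known as direct targets of the tumour suppressor p53, and their products repress cell-cycle and survival genes such as CDK6, MET and BCL2. The miR-449 genes share that seed, are controlled by other factors including E2F1, and are known above all from cells with many cilia, such as those of the airway lining.

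The mature sequences are shown first because the shared seed defines the family and because miR-449a and miR-449b, which differed in several results, are almost the same molecule. The RefSeq table (GRCh38.p14) held the mature sequence of 3 of the 4 members. Capitals mark the seed GGCAGUG, whose complementary heptamer in a target is CACUGCC.
miR-34a-5p: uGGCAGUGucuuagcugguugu
miR-449a: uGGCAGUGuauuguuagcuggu
miR-449b-5p: aGGCAGUGuauuguuagcuggc
These were the only 3 of the 2370 human mature miRNA names in that table with this heptamer at bases 2 to 8. miR-449a and miR-449b-5p were identical at 20 of 22 positions and differed by U1A and U22C, counted from the 5′ end with the base of miR-449a first. miR-34a-5p and miR-449a shared their first 9 bases and a second run of 9 bases, UUAGCUGGU, which began at base 11 of miR-34a-5p and base 14 of miR-449a. In 2 relatives from the same gene clusters the heptamer lay 1 base later, at bases 3 to 9, so that their seed is shifted; they are shown for comparison and were not analysed here.
miR-34b-5p: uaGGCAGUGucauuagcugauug
miR-449c-5p: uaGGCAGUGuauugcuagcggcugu

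The members came from 3 loci. In the RefSeq annotation (GRCh38.p14) mature miR-34a-5p lay at chr1:9151735-9151756 on the minus strand, within the span of the long non-coding RNA gene MIR34AHG. Mature miR-449a (chr5:55170586-55170607, minus strand) and miR-449b-5p (chr5:55170706-55170727, minus strand) lay within the span of CDC20B, a relative of the cell-cycle gene CDC20, and their precursor genes were only 23 bases apart. MIR34C lay at chr11:111513439-111513515, 417 bases from MIR34B and within the spans of MIR34BHG and BTG4.

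The readout was the threshold cycle (Ct), the PCR cycle at which the fluorescence of a well crosses a set line. If each cycle doubles the product, a Ct lower by 1 means 2-fold more template. The highest Ct in the table was 35, which was read as not detected. A Ct under 35 was recorded for 219 assays in the hypoxic exosome fraction (58.1%), 221 in the normoxic exosome fraction (58.6%), 155 in hypoxic cells (41.1%) and 162 in normoxic cells (43.0%). Of the 4 family assays, all 4 were detected in each exosome sample, 2 in hypoxic cells and 3 in normoxic cells. The median Ct of the detected assays was 26.97 and 26.96 in the exosome samples and 30.99 and 31.12 in the cell samples. All 7 blood and lymphoid marker assays (miR-142-3p, miR-142-5p, miR-146a, miR-150, miR-155, miR-181a and miR-223) were detected in all 4 samples, the lowest Ct of the list being 18.96 in the hypoxic and 18.75 in the normoxic exosome fraction, and 24.97 in hypoxic and 24.95 in normoxic cells. Of 7 epithelial marker assays, 6 were detected in each sample, at a lowest Ct of 23.63 and 23.77 in the exosome samples and 28.64 and 28.96 in the cell samples. They were not the same 6: miR-200c was at the ceiling in both exosome samples and miR-141 in both cell samples. Each group was 1 sample and each miRNA 1 well, so no value below has a replicate error, no test between groups was made and no p-value is given. The only repeated wells were those of the small nuclear RNA U6, at a Ct of 18.81 ± 0.12 in hypoxic and 18.82 ± 0.15 in normoxic cells (SD, n = 4 wells of 1 sample). That spread describes an abundant RNA and not late wells.

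miR-34a was the one member with an early signal everywhere. Its Ct was 22.97 in the hypoxic and 22.98 in the normoxic exosome fraction, and 29.96 in hypoxic and 30.45 in normoxic cells. Ordered by Ct among the detected assays, it was number 49 of 219 and 50 of 221 in the exosome samples, and 60 of 155 and 66 of 162 in the cell samples. It thus stood earlier than the median detected assay in each sample.

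miR-449a, the second member to be seen early in a cell sample, had a Ct of 30.98 in the hypoxic and 30.67 in the normoxic exosome fraction, stood at the ceiling in hypoxic cells, and had 30.41 in normoxic cells. In normoxic cells its Ct was within 0.04 cycles of that of miR-34a, at number 65 of 162. In the exosome samples it came 8.01 and 7.69 cycles later than miR-34a, at number 174 of 219 and 164 of 221. Being detected in both exosome samples and in normoxic but not hypoxic cells was a pattern of 9 of the 377 assays (2.39%).

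miR-449b had a Ct of 29.31 in the hypoxic and 29.98 in the normoxic exosome fraction, and 34.99 in hypoxic and 33.98 in normoxic cells. It was detected in all 4 samples, as were 138 of 377 assays (36.6%), but the value in hypoxic cells was just inside the ceiling. Detected assays within 0.1 cycles of the ceiling numbered 8 in hypoxic and 7 in normoxic cells.

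miR-34c-5p, from the second p53-responsive locus, was the latest member. It had a Ct of 34.43 in the hypoxic and 33.003 in the normoxic exosome fraction. Both cell wells were at the ceiling, a pattern shared by 50 of 377 assays (13.3%). It was number 216 of 219 and 202 of 221 in the exosome samples. The ceiling in cells says little about its level there. Over the 138 assays detected in all 4 samples, the median Ct of the cells came 6.98 cycles after that of the exosome fraction in hypoxia and 6.95 cycles after it in normoxia. An assay with that offset would reach the cell ceiling from an exosome Ct of 28.02 in hypoxia and 28.05 in normoxia.

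The order of the members by Ct thus differed between the exosome samples and normoxic cells. In both exosome samples it was miR-34a, miR-449b, miR-449a and miR-34c-5p, and in normoxic cells miR-449a and miR-34a lay together, with miR-449b 3.53 cycles after miR-34a. In hypoxic cells miR-34a came first and miR-449b followed at 34.99. There miR-449a and miR-34c-5p were at the ceiling, so no different order was seen. The difference in order therefore rests on the miR-449a well of normoxic cells. Different assays can amplify unequally, so a Ct gap between members is not a ratio of molecules, and neighbours in this order could not be compared with a replicate spread.

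**Figure D1:**
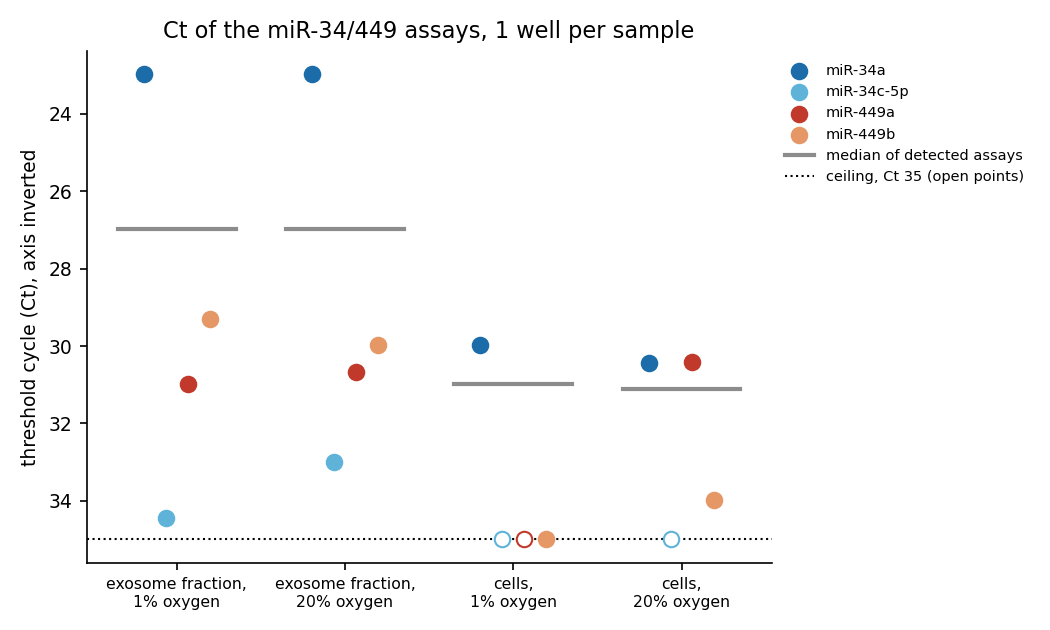
Ct of the 4 family assays (1 well each) in the 4 samples, with the axis inverted so that more template is higher; grey bars are the median Ct of the detected assays, the dotted line is the ceiling and open points are wells at it. miR-34a stands above the median in each sample, miR-449a only in normoxic cells, and the filled miR-449b point at 34.99 in hypoxic cells lies almost on the ceiling.

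The first comparison asked how the members differed between oxygen conditions in cells, after subtracting the mean Ct of the U6 wells, the control named in the series' design text. miR-34a was 1.39-fold in hypoxic over normoxic cells (log2 difference 0.48). Of the 147 assays detected in both cell samples, 53 (36.1%) had a larger difference in either direction. miR-449a was detected in normoxic cells only and was at least 24.1-fold lower in hypoxic cells, a bound against Ct 35 that rests on 1 well per sample. miR-449b was 2.02-fold lower in hypoxic cells (log2 difference -1.01) and miR-34c-5p had no value.

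Past the threshold of 2-fold there was thus 1 of the 2 members measured in both cell samples, miR-449b, and it was lower. Over all assays detected in both, 9 of 147 were at least 2-fold lower (6.12%) and 11 at least 2-fold higher (7.48%), and the median log2 difference was 0.03. With RNU44 and RNU48, 2 small nucleolar RNAs, as normalizer, 10 were at least 2-fold lower and 6 at least 2-fold higher. The miR-449b difference was a step of about 1 cycle, and both of its Ct values lay within 0.1 of a whole number. It lay at the threshold, and was within 2-fold with the sample median as normalizer (-0.98), with 1 of the 4 U6 wells left out (-0.95) and at an amplification efficiency of 90% (-0.94). Leaving out any other U6 well gave -1.04, -1.04 or -1.01, and RNU44 and RNU48 gave -1.16. With a Ct under 32 required in both cell samples, miR-449b had no value. Of the assays detected in either cell sample, 15 of 170 were seen in normoxia only (8.82%). Only 3 of these 15 had a Ct under 32 in normoxic cells: miR-493, miR-15a and miR-449a, which was the third in order of Ct. The miR-493 value of 20.94 was the lowest Ct of any human miRNA assay in normoxic cells. Yet miR-493 was at the ceiling in hypoxic cells and in both exosome samples. How such single early wells arose was not tested. The other 12 lay between 33.37 and 34.99.

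The second comparison asked the same of the exosome fraction, with the spike-in as normalizer. The spike-in had a Ct of 22.99 in the hypoxic and 22.94 in the normoxic exosome fraction. miR-34a was 1.05-fold in the hypoxic over the normoxic exosome fraction (log2 difference 0.06), and 165 of the 203 assays detected in both (81.3%) had a larger difference. miR-449a was 1.19-fold lower in the hypoxic fraction (-0.25), with 100 of 203 assays (49.3%) differing by more. The sample median as normalizer gave 0.26 for miR-34a and -0.053 for miR-449a.

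The remaining members lay further from 0. miR-449b had a level 1.65-fold higher under hypoxia (0.72), number 12 of 203 from the highest, and within 2-fold. miR-34c-5p was 2.60-fold lower (-1.38), number 6 of 203 from the lowest. It was the only one of the 4 members past 2-fold, against 7 of 203 assays at least 2-fold lower (3.45%) and 8 at least 2-fold higher (3.94%). Its Ct values were above 32 in both samples, and with a Ct under 32 required in both it had no value.

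The authors' deposited table gives ratios of hypoxia over normoxia of 1.3948 for miR-34a and 0.4962 for miR-449b in cells, and of 1.0458 for miR-34a, 0.3849 for miR-34c-5p, 0.8398 for miR-449a and 1.6523 for miR-449b in the exosome fraction. The recomputed log2 differences lay within 0.00012 of these. The authors' deposited table also gives 0.0414 for miR-449a in cells, where the hypoxic well was at the ceiling, and 0.9965 for miR-34c-5p, where both were; neither was used as a measurement.

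**Figure D2:**
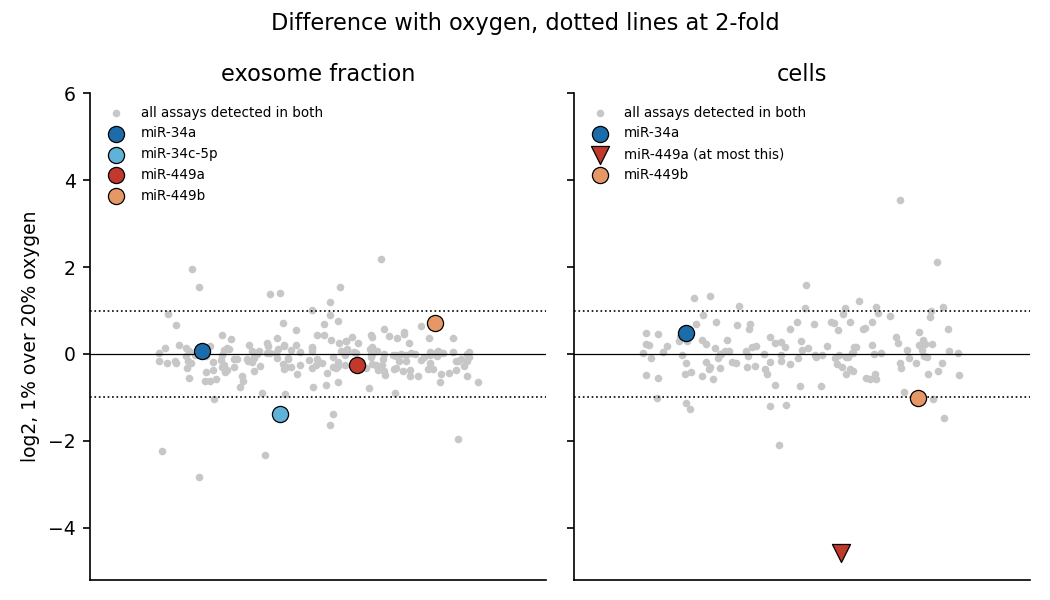
Log2 difference, 1% over 20% oxygen, of the assays detected in both samples of a compartment (grey; 203 in the exosome fraction and 147 in cells) and of the family (coloured); the triangle is a bound and dotted lines mark 2-fold. miR-34a lies near 0 in the exosome fraction and at 0.48 in cells, miR-34c-5p at -1.38 in the exosome fraction, and the bound of miR-449a in cells at -4.59.

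The third comparison set the response to oxygen in the exosome fraction against that in cells. The first was normalized to the spike-in and the second to U6, so the 2 responses are not on one scale. miR-449b was 1.65-fold higher in hypoxia in the exosome fraction and 2.02-fold lower in cells, a difference of 1.74 between the log2 values. It was the second highest of the 138 assays detected in all 4 samples, of which 8 (5.80%) exceeded their cell response by 2-fold or more and 14 (10.1%) fell short of it by 2-fold or more. Both this rank and the place of miR-449b among the 138 rest on its Ct of 34.99 in hypoxic cells, just inside the ceiling. The combination of a higher exosome level and a lower cell level in hypoxia was found for 24 of the 138 (17.4%). miR-34a gave a difference of -0.42, at number 92 of 138 from the highest, and of -0.27 with RNU44 and RNU48 as normalizer in cells. For miR-449a the exosome value was -0.25 and the cell value at most -4.59, so that the difference was at least 4.34. None of these differences has an error.

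The fourth comparison set the exosome fraction against cells at each oxygen level, with each sample centred on its median Ct over the 138 assays detected throughout. This shows a member's place relative to the rest of the card and not an amount per vesicle or per cell. Over all assays detected in both compartments the median log2 difference, exosome fraction over cells, was -0.92 in hypoxia (146 assays) and -0.52 in normoxia (148 assays). miR-34a was at 0.01 in hypoxia and 0.52 in normoxia, number 41 of 146 and 30 of 148 from the highest, and so above the median assay in both. Before centring, its Ct was 6.998 cycles earlier in the exosome fraction in hypoxia and 7.47 in normoxia, close to the offset of the card's median. Centred on assays under Ct 32 in all 4 samples, its values were 1.00 and 1.27.

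miR-449b was 2.47-fold lower in the exosome fraction than in cells in hypoxia (-1.30), number 98 of 146 from the highest and 0.38 below the median assay. The cell Ct behind this value was 34.99, just inside the ceiling. In normoxia miR-449b was 7.71-fold lower (-2.95), number 130 of 148 and 2.42 below the median assay. At least 4-fold lower values were found for 39 of 146 assays in hypoxia (26.7%) and for 32 of 148 in normoxia (21.6%), and at least 4-fold higher values for 5 (3.42%) and 9 (6.08%). In both oxygen conditions together it was not among the 23 of 138 assays (16.7%) that were at least 4-fold lower. With the centre over assays under Ct 32 its values were -0.31 and -2.20.

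miR-449a could be compared in normoxia only, where it was 148-fold lower in the exosome fraction than in cells (-7.21), the third lowest of 148 assays, whose values ran from -8.06 to 4.47. Its raw Ct was 0.26 cycles later in the exosome fraction than in cells, although that fraction had been pre-amplified. This value, its bound in hypoxic cells and its place beside miR-34a all rest on the same single well of normoxic cells. In the samples where both were detected, miR-449a came 1.67 cycles after miR-449b in the hypoxic exosome fraction, 0.69 cycles after it in the normoxic exosome fraction, and 3.57 cycles before it in normoxic cells. The relation of these 2 neighbouring miRNAs was therefore turned round in normoxic cells, and whether either assay also reads the other miRNA was not tested.

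Late exosome signals were taken as those past the Ct from which an assay with the median offset would reach the cell ceiling. A low share of matching signals in cells thus follows in part from that cutoff. Among the 91 assays with a Ct between 28.05 and 35 in the normoxic exosome fraction, 22 were also detected in normoxic cells (24.2%), and miR-449a and miR-449b were among them. In hypoxia 23 of 89 such assays were also detected in cells (25.8%), and here only miR-449b among the family was. Of the 73 assays late in both exosome samples, miR-449a was the only 1 with a Ct as early as 30.41 in normoxic cells. That limit is the miR-449a value itself, from the same single well as above, so the count describes that well only.

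**Figure D3:**
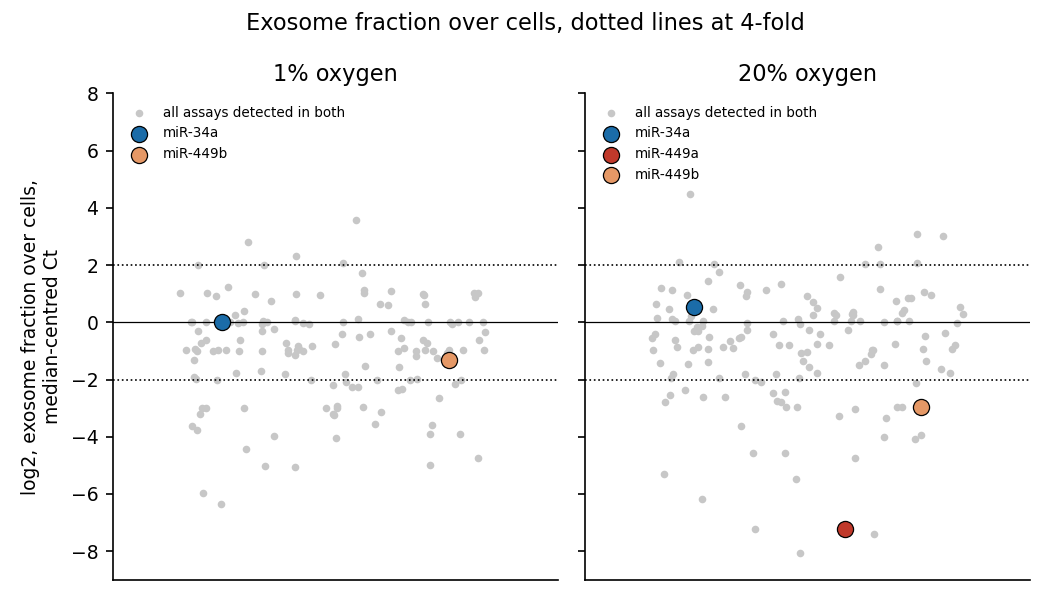
Log2 difference, exosome fraction over cells, after median centring at 1% oxygen (146 assays) and 20% oxygen (148 assays), with the family in colour and dotted lines at 4-fold. miR-34a lies at 0.01 and 0.52, miR-449b at -1.30 and -2.95, and miR-449a, measured in both compartments only at 20% oxygen, at -7.21.

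The Ct values of the card gathered at whole cycles, which bears on each small difference above. Of the detected assays, 67.1% in the hypoxic exosome fraction, 61.1% in the normoxic exosome fraction, 71.6% in hypoxic cells and 53.7% in normoxic cells had a Ct within 0.1 of a whole number, where values spread evenly would give 20%. Of the 13 detected family values, 8 were of this kind. Both exosome values of miR-34a and both cell values of miR-449b were among them, so the near-equal Ct of the first and the 1-cycle step of the second are such values. The miR-449a value of 30.41 in normoxic cells was not. How the Ct values came to gather there was not tested.

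**Figure D4:**
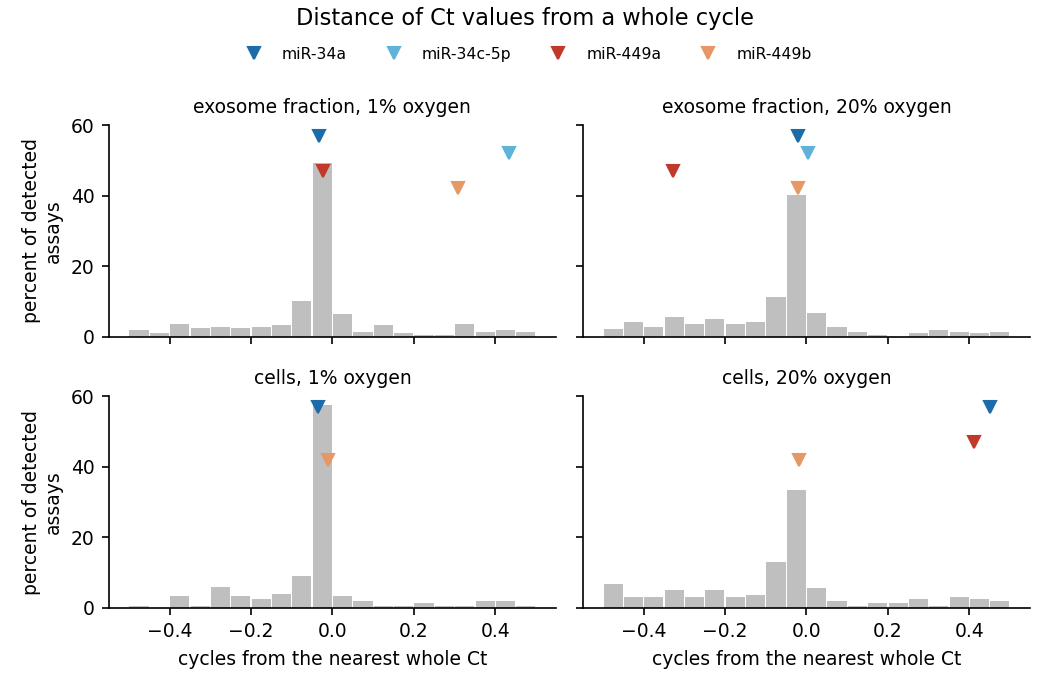
Percent of the detected assays by distance of their Ct from the nearest whole number, in bins of 0.05 cycles, for the 4 samples; triangles mark the family, and their height has no meaning. Between 33.3% (normoxic cells) and 57.4% (hypoxic cells) of the detected assays fall in the bin just below a whole cycle.

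Other miRNAs that act downstream of p53 in some cells were described as a list beside miR-34a and miR-34c-5p. Of 11 listed, 9 had an assay among the 377. In the exosome fraction 3 were detected in both samples, none past 2-fold, with a median log2 difference of -0.05 against -0.07 for all assays. These 3 were miR-192 (-0.05), miR-194 (-0.11) and miR-16 (0.11). miR-215, which shares its seed with miR-192, was seen in hypoxia only at a Ct of 28.07 and was at least 127-fold higher there, and miR-143 in hypoxia only at 34.01. Of all assays detected in either exosome sample, 16 of 237 were seen in hypoxia only (6.75%).

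In cells 4 of the 9 were detected in both samples, with a median log2 difference of 0.21 against 0.03 for all assays. Only miR-194 was past 2-fold, 4.36-fold higher in hypoxia, from a Ct of 32.84 in hypoxic and 34.97 in normoxic cells. miR-215 and miR-107 were seen in hypoxic cells only, at 33.98 and 33.10, and were at least 2.02-fold and 3.72-fold higher. Of all assays detected in either cell sample, 8 of 170 were seen in hypoxia only (4.71%). miR-15a, which targets BCL2, was seen in normoxic cells only at 30.10, as miR-449a was, and was at least 30.0-fold lower in hypoxia. It was at the ceiling in both exosome samples, unlike miR-449a. The list thus held members of either direction.

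The assays with the most similar Ct over the 4 samples were found by Euclidean distance, a description of 4 points per assay in which all assays of a sample share the card and the pre-amplification. Nearest to miR-34a were miR-660, miR-532-5p and miR-195, at distances of 0.53, 0.60 and 0.61 cycles. miR-449b had the closest neighbour, miR-219-1-3p, at 0.05 cycles, with a Ct of 29.35 in the hypoxic and 29.97 in the normoxic exosome fraction, the ceiling in hypoxic cells and 33.98 in normoxic cells; miR-517c (0.77) and miR-124 (1.04) followed. Nearest to miR-34c-5p were miR-511 (0.27), miR-542-5p (0.49) and miR-381 (0.50), each at the ceiling in both cell samples. miR-449a had no close match: its nearest assay, miR-422a, was 2.74 cycles away, followed by miR-331-5p (3.53) and miR-362-5p (3.78).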

How the data were processed

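MicroRNAs were measured with TaqMan array cards in 4 samples. The authors deposited the Ct of each well without normalization, and a table of the ratio (fold) of hypoxia over normoxia, made per the labels and design text with Data Assist Software version 3.1. The sources used here do not say how the ceiling of 35 was set. A Ct carries no count or depth, and precision is limited by 1 sample per group.

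Log2 differences were negative differences of normalized Ct (U6 wells in cells, spike-in in the exosome fraction) at full efficiency, computed for all 377 assays. An assay entered a comparison at a Ct under 35 in both samples, with thresholds of 2-fold for oxygen and 4-fold for compartment. Alternatives covered normalizers, centring, Ct limits and efficiency. The calculation was tested on simulated data, which started from Ct values under 33 and had the same noise in all assays. That test does not describe the error of late wells. Groups came from sample titles. The members, lists and naming rule (members, controls, 3 nearest assays per member, same-seed miRNAs, list members past 2-fold or seen in 1 sample) were chosen with earlier results of these data known; miR-493 was named after its value was seen. Python 3.11.15, pandas 2.3.3 and numpy 2.4.6 were used.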

Additional observations from a re-analysis of the deposited data

Results flagged for a closer look

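miR-449b moved in opposite directions with oxygen in the 2 compartments: it was higher in hypoxia in the exosome fraction and lower in hypoxia in cells, with a difference of 1.74 between the log2 values. The difference was not tested, since each group is 1 sample. Opposite directions were found for 72 of the 138 assays detected in all 4 samples (52.2%). The cell side of the difference rests on Ct values of 34.99 and 33.98 in hypoxic and normoxic cells.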

How the results depend on the processing

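No paired analysis was possible because each group holds 1 sample. A change was taken as a move when it exceeded 0.19 log2, the spread of a difference between 2 U6 wells, or, for a count, a factor of 1.5. That spread comes from an abundant RNA and does not describe late wells. In the exosome fraction the sample median as normalizer gave 0.26 for miR-34a, -1.18 for miR-34c-5p, -0.053 for miR-449a and 0.92 for miR-449b. A change of normalizer shifts all members by the same amount, so these are not separate moves. For exosome fraction over cells, centring on the mean over assays detected in all 4 samples gave, for miR-34a, 0.95 in hypoxia and 1.18 in normoxia, for miR-449b -0.37 and -2.29, and for miR-449a -6.55 in normoxia, with 9 assays at least 4-fold higher in both conditions. Centring on the median over assays under Ct 32 in all 4 gave 1.00 and 1.27 for miR-34a, -0.31 and -2.20 for miR-449b and -6.46 for miR-449a, with 10 assays at least 4-fold higher and 14 lower. At 90% efficiency the miR-449a bound in cells was -4.25. RNU44 and RNU48 as normalizer gave 6 assays at least 2-fold higher and 10 lower in hypoxic cells, against 11 and 9 with U6. With Ct under 32 in both samples 1 assay was higher and 4 lower in cells, and 2 higher and 0 lower in the exosome fraction. At limits of 34, 33 and 32, only 1 member, miR-34a, was detected in hypoxic cells. The hypoxic exosome fraction lost miR-34c-5p at 34 already, which left 3 members. At 33 and 32, 3 were detected in each exosome sample and 2 in normoxic cells. In 66 combinations of a result and an alternative setting, the value or count moved by no more than those limits. In 26 it moved further, and these are among the values listed above. No member's log2 value changed sign in any combination, but miR-449b in cells crossed 2-fold in 3 of the 66. Late wells limit miR-34c-5p and miR-449b most.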
